A study of Caenorhabditis elegans with 2 samples.

Results

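The genes of small nucleolar RNAs (snoRNAs) were examined for sites recovered with tagged JUN-1 in whole Caenorhabditis elegans larvae. All 346 genes of biotype snoRNA on the nuclear chromosomes of the WBcel235 annotation were taken, out of 46890 annotated genes there, by their annotated biotype alone and not by their signal. Each gene was extended by 250 bp on both sides, and the strongest peak summit in that window was read from each deposited peak list. By position, 169 of the genes were intronic (inside an intron of a protein-coding gene and off its exons), 124 were intergenic (outside any protein-coding gene) and 53 touched a protein-coding exon.

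The study immunoprecipitated chromatin from L4 larvae, the last larval stage, and sequenced it as 2 biological replicates of 1 group. The worms were strain OP234, which carries the insertion wgIs234 with eGFP-tagged jun-1 in the unc-119(ed3) III mutant background, and males and females were pooled. Every sample carried these alleles, and no untagged strain, other genotype or treatment was analysed here. The labels do not say which regulatory sequence drives the tagged gene, whether the animals' own jun-1 was intact, or how old the larvae were. JUN-1 is the nematode relative of JUN, a subunit of the AP-1 transcription factor, which in mammals binds TGACTCA and close forms of it. Because whole animals were used, a summit cannot be assigned to a cell type.

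Small nucleolar RNAs guide the chemical modification of ribosomal RNA in the nucleolus. Box C/D snoRNAs guide ribose methylation and carry a C box (TGATGA is its core) near the front and a D box (CTGA) near the end, while box H/ACA snoRNAs guide pseudouridylation and end shortly after the letters ACA. Many animal snoRNAs are cut out of the introns of host genes and so are made from the host's promoter, whereas others are transcribed from a promoter of their own, by RNA polymerase II or III. Transfer RNA genes, which RNA polymerase III transcribes, carry an A box and a B box inside the gene, bound by the factor TFIIIC.

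The peak lists used were of 4 kinds, all on the ce11 build, which is WBcel235. The replicate 1 and replicate 2 lists held 19396 and 23742 regions, the joint list of both replicates held 13085, and the list past the authors' threshold on the irreproducible discovery rate held 899. Those 899 were the strongest peaks of the joint list, and a summit in it is called reproducible below. The other lists also hold background regions. Signal is the authors' value per peak, on a scale that the labels and files do not state, and read depth is unknown.

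Sequences of 130 bases, read from the RefSeq copy of WBcel235 on each gene's strand, are shown for 8 of the genes with the strongest reproducible summits, to let the stretch before the snoRNA be seen beside the summit. These are not the 8 strongest, and all but T06C12.16 hold a letter arrangement marked in capitals below. Among all 54 genes with a reproducible summit, 34 held one. C10C6.8 (joint signal 92.2), F09G2.14 (91.2), W06H8.17 (87.5) and Y53F4B.48 (82.8) held none and are not shown. Each was stronger than W03C9.9 (78.7) and Y75B12B.12 (73.4), which are shown. Base 111 is the first base of the annotated snoRNA. The first set has a CGNAACNNG block followed after 4 to 8 bp by TGTC, called the paired element below and marked in capitals. It consists of chrV:8500469-8500598 (plus strand), intronic, chrII:14018422-14018551 (minus strand), intronic, and chrII:15025874-15026003 (minus strand), intergenic, with the summit 22, 18 and 79 bp before the snoRNA start in that order.
ZK994.7: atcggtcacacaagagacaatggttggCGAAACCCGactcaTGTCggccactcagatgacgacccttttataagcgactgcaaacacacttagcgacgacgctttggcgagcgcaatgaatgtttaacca
F01D5.12: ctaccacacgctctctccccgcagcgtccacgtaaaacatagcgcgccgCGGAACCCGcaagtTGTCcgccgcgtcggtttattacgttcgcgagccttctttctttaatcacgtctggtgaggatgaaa
Y53F4B.47: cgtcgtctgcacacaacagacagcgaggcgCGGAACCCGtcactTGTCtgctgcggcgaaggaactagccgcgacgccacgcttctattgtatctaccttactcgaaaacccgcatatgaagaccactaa

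The second set has an A-box-like block, GGNNNANNGG or GGNNNANNNGG, followed after 20 to 80 bp by a B-box-like block, GNTCNANNC, and the capitals mark both blocks. It consists of chrV:11314148-11314277 (plus strand), intronic, chrV:12303598-12303727 (plus strand), intronic, chrII:11960788-11960917 (plus strand), intergenic, and chrV:15191074-15191203 (minus strand), intergenic, with the summit 10, 91, 55 and 47 bp before the snoRNA start in that order. This arrangement, called the A-B pair below, has the letters and order of the internal elements of a tRNA gene, but lies before the snoRNA. For C51F7.3, however, the marked pair and the summit lie inside a neighbouring annotated snoRNA gene. That gene, C51F7.4, spans 12303599 to 12303693 on the same strand.
T03F7.8: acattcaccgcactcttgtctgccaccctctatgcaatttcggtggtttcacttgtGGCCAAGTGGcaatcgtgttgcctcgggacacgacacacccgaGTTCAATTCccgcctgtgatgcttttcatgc
C51F7.3: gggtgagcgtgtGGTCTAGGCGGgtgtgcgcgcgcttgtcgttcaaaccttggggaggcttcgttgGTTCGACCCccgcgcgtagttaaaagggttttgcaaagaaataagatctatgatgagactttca
W03C9.9: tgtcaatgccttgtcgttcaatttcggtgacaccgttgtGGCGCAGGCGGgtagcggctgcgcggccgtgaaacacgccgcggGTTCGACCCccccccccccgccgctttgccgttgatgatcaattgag
Y75B12B.12: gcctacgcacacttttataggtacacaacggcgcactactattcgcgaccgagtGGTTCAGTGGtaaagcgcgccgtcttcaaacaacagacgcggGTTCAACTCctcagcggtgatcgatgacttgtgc

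The strongest intergenic gene, T06C12.16, holds neither arrangement as spelled out here, at chrV:15873907-15874036 (minus strand), with the summit 73 bp before the snoRNA start, and no letters are capitalised.
T06C12.16: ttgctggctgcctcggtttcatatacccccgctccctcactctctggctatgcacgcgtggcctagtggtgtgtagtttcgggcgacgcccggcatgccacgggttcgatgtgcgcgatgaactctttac

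A reproducible summit was found at 54 of 346 snoRNA genes, or 15.6% (95% exact Clopper-Pearson interval 11.9 to 19.9). With the same extension, 1002 of 46890 annotated genes had one, or 2.14%. That share is lowered by 15363 piRNA genes, of which 0.0846% had one. Windows also follow gene length, so they are not equally long between kinds of gene. Among protein-coding genes the share was 2.98%, and among genes of biotype ncRNA it was 3.10%. tRNA and snRNA genes stood between these values and the snoRNA share, and miRNA genes were near all genes. Of 612 tRNA genes, which encode the adaptors of translation, 9.48% had a reproducible summit (interval 7.28 to 12.1). Of 129 snRNA genes, which encode the RNAs of the spliceosome, 9.30% had one (interval 4.90 to 15.7), and of 261 miRNA genes 2.30% had one. These intervals, like all below, cover counting error over genes only, and genes are not replicates of the experiment.

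In the longer lists, which include background, the snoRNA share was also above that of all genes, by a smaller ratio. In the joint list 120 snoRNA genes, or 34.7%, had a summit, against 19.6% of all genes and 32.7% of protein-coding genes. In the replicate 1 list the share was 39.0%, against 26.2% of all genes, and in the replicate 2 list it was 42.5%, against 29.8% of all genes. All of these all-gene shares include the piRNA genes, of which 3.51% had a joint-list summit. The joint-list share of tRNA genes, 53.4%, was higher than that of snoRNA genes. Of the snoRNA genes with a joint-list summit, 54 of 120 (45.0%) had one past the reproducibility threshold, against 1002 of 9178 annotated genes with a joint-list summit (10.9%). The same count was 12 of 32 for snRNA genes, near the snoRNA share, and 58 of 327 for tRNA genes. At the threshold, the weakest snoRNA genes inside were smy-2, with signal 49.9 and rank 888 of the joint list, and T21B4.20, with signal 49.9 and rank 883, and the strongest outside was ZK265.10, with signal 49.2 and rank 922.

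The summits at snoRNA genes were of middling strength among reproducible peaks. Their joint signal ranged over 49.9 to 128 with a median of 63.4, against a median of 68.0 and a maximum of 564 for the 846 reproducible peaks in no snoRNA window. None of the 25 strongest reproducible peaks lay at a snoRNA gene, and 20 of the 54 genes ranked in the stronger 449 of the 899. The 54 genes carried 53 distinct summits, since C51F7.3 and C51F7.4, neighbours in frm-7, shared 1, and no gene had a second reproducible summit in its window.

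**Figure D1:**
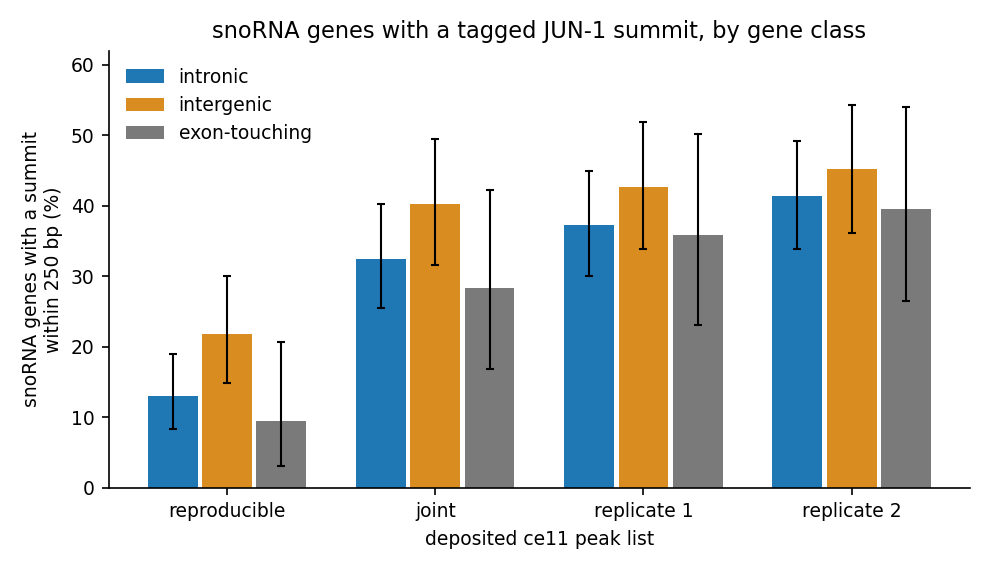
Percent of snoRNA genes with a summit within 250 bp in each deposited list, for 169 intronic, 124 intergenic and 53 exon-touching genes (bars, with 95% exact intervals over genes). In all 4 lists the intergenic bar is the tallest, and the intervals of the classes overlap in every list.

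Intronic snoRNA genes had a reproducible summit less often than intergenic ones, by a small margin. The counts were 22 of 169 intronic genes (13.0%, interval 8.34 to 19) and 27 of 124 intergenic genes (21.8%, interval 14.9 to 30.1). The difference, intronic minus intergenic, was -8.76 percentage points, with a Newcombe 95% interval of -17.9 to -0.0804. Of the genes touching an exon, 5 of 53 had one (9.43%, interval 3.13 to 20.7). In the joint list the shares were 32.5% of intronic and 40.3% of intergenic genes, and the difference of -7.78 points had an interval of -18.8 to 3.27.

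The replicates gave the same sign with different sizes. Among the 899 strongest peaks of replicate 1, the shares were 8.88% of intronic and 14.5% of intergenic genes, a difference of -5.64 points (interval -13.7 to 1.70). Among the 899 strongest of replicate 2 they were 12.4% and 22.6%, intronic and intergenic in turn, a difference of -10.2 points (interval -19.3 to -1.45). With the whole lists the difference was -5.46 points in replicate 1 and -3.74 points in replicate 2, and both intervals included 0. Only the reproducible list and the strongest peaks of replicate 2 gave an interval below 0.

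Intronic and intergenic sequence at large held few reproducible summits. Genome tiles of 630 bp, the median window length, held one in 0.352% of tiles centred in introns and 0.902% of tiles centred between genes. For the joint list these shares were 7.14% of intronic and 8.12% of intergenic tiles. Tiles thus had the same order as the snoRNA genes, with intronic below intergenic.

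The gap between the classes did not hold across the definitions of an intergenic gene. The 51 intergenic genes under 500 bp from a protein-coding gene had a reproducible summit in 22 cases (43.1%, interval 29.3 to 57.8), against 5 of the 73 farther away (6.85%, interval 2.26 to 15.3). With those 73 alone as the intergenic class, the difference turned to 6.17 points in the reproducible list and 5.15 points in the joint list. Among the strongest peaks of replicate 1 the near and far shares were 25.5% and 6.85%, and among those of replicate 2 they were 49.0% and 4.11%.

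The near genes were then split by whether a coding promoter was at hand. A promoter window, from 1000 bp before to 200 bp after a coding transcript start, was touched by the windows of 32 of the 51 near genes. Of those 32, 14 had a reproducible summit (43.8%), and of the 19 near genes whose window touched none, 8 had one (42.1%). The other lists had a higher share where a promoter window was touched, at 65.6% against 47.4% in the joint list, 31.2% against 15.8% among the strongest peaks of replicate 1 and 53.1% against 42.1% among those of replicate 2. With 32 and 19 genes the intervals of each pair overlap. Over all intronic and intergenic genes whose windows touched no promoter window, the shares were 15 of 94 (16.0%) and 13 of 74 (17.6%), intronic first. The difference between the classes was then -1.61 points in the reproducible list and 1.04 points in the joint list, so the gap was mostly absent where no promoter window was touched.

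Among intronic genes, the strand and kind of host were compared. Of the 141 lying on the host's strand, 16 had a reproducible summit (11.3%, interval 6.63 to 17.8), and of the 27 on the opposite strand 6 had one (22.2%, interval 8.62 to 42.3), with overlapping intervals. The 22 intronic genes with a reproducible summit had 22 different hosts. Introns of ribosomal protein genes, classic snoRNA hosts, gave 0 of 19, which allows a share of up to 17.6% by the exact interval, against 22 of 150 for other hosts (14.7%). Host introns of genes with a reproducible summit had a median length of 346 bp (quartiles 290 and 638). For intronic genes with no joint-list summit it was 538 bp (quartiles 237 and 2281), so the ranges overlapped and the lower quartile was the smaller one there.

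ZK994.7, on the strand of its host pxn-1 (an extracellular matrix peroxidase gene), had the strongest summit at any snoRNA gene, with signals of 64.6 in replicate 1, 64.0 in replicate 2 and 128 in the joint list. The summit lay 22 bp before its start, after its paired element in the stretch printed above. T03F7.8, antisense within cutl-18, came second, with 48.3 in replicate 1, 62.3 in replicate 2 and 115 jointly, 10 bp before its start and inside its A-B pair. Both genes were above the medians of the 54 genes with a reproducible summit, 29.6 in replicate 1 and 36.1 in replicate 2. They were named for their joint signal, which both replicates make up, so high values in each are no separate finding.

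The next 3 intronic genes differed between replicates, in either direction. C10C6.8 (chromosome IV, 11474059 to 11474191, minus strand), in catp-8, which encodes a P-type ATPase, had 37.8 in replicate 1 and 50.3 in replicate 2. C51F7.3, in the FERM-domain gene frm-7, had 35.0 in replicate 1 and 56.8 in replicate 2. F01D5.12 was the reverse, with 49.9 in replicate 1 and 32.9 in replicate 2. The next 5 intronic genes had joint signals between 66.4 and 80.3. They were W08G11.6 in W08G11.3, Y37E3.20 in pcyt-2.1 (an enzyme of phospholipid synthesis), ZK484.9 antisense in haf-9 (an ABC transporter), C08D8.3 in C08D8.1 and K11C4.6 in unc-70 (beta-spectrin). Y37E3.20 differed most between replicates among these 5, at 24 in replicate 1 and 48.9 in replicate 2, and it was the sole one of the 10 named intronic genes whose summit lay in a promoter window, 350 bp from a coding start.

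Of the 10 strongest intergenic genes, T06C12.16 led, with 49.2 in replicate 1, 46.1 in replicate 2 and 94.6 jointly. F09G2.14 (chromosome V, 7196237 to 7196580, minus strand) had 51.9 in replicate 1 and 39.8 in replicate 2, and Y53F4B.47 had 48.4 and 44.2, replicate 1 first. All 3, likewise named for their joint signal, were above the median of the 54 genes in both replicates. W06H8.17 (chromosome V, 6227355 to 6227550, minus strand) had 34.3 in replicate 1 and 56.7 in replicate 2. Its joint summit lay 243 bp before its start, the farthest upstream of the 54. The replicate 2 summit was at that same place, but the replicate 1 summit lay 87 bp before the start. Y53F4B.48, F59C6.15, W03C9.9, Y75B12B.12, D2021.6 and T19B4.8 followed, with joint signals between 67.5 and 82.8. Of the 10, 7 had the summit inside a promoter window, the exceptions being T06C12.16, W03C9.9 and T19B4.8.

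Of the 5 exon-touching genes with a reproducible summit, T02E1.9 (chromosome I, 8224474 to 8224544, plus strand), opposite to an exon of spe-12, was the strongest, with 47.8 in replicate 1, 60.7 in replicate 2 and 109 jointly. C51F7.4 shared its summit with C51F7.3. F07A11.15 at din-1, C02F5.15 at fbxl-1 and ZK546.18 at ZK546.19 had joint signals of 64.8, 55.7 and 51.2 in that order. Their summits lay 182 bp after, 179 bp before and 109 bp before the snoRNA start, farther than most.

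Below the reproducibility threshold, the strongest intronic genes were F19H8.6 in mltn-9, Y71D11A.7 in acsd-1 and M106.6 in mix-1 (a condensin subunit), with joint signals of 45.0, 40.8 and 38.7. M106.6, which carries an A-B pair, had 28.1 in replicate 1 and 11.5 in replicate 2. The strongest intergenic ones were ZK265.10, C41C4.11 and K07C10.2, at 49.2, 46.0 and 45.8. All 6 had a summit in both replicate lists.

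**Figure D2:**
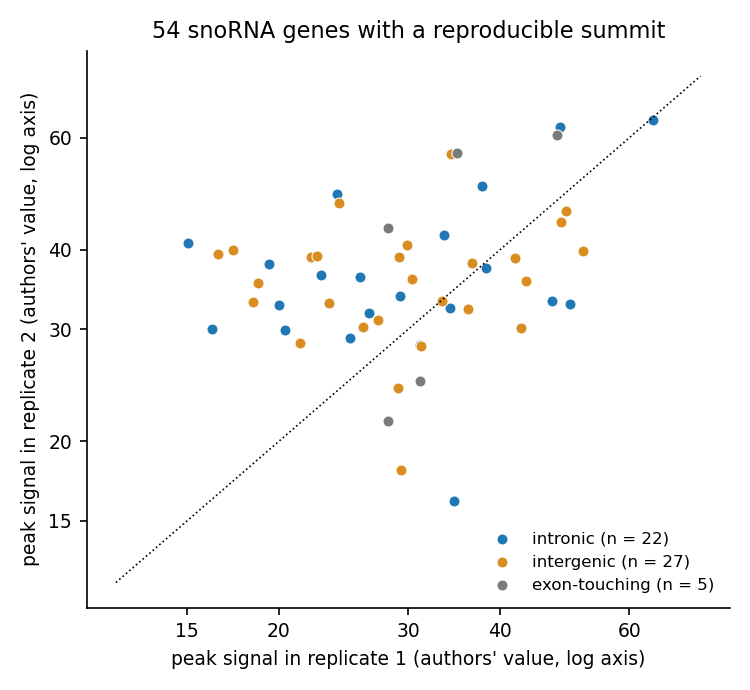
Signal of the strongest peak in the window of each of the 54 snoRNA genes with a reproducible summit, in replicate 1 (horizontal) and replicate 2 (vertical), both on log axes, with the line of equal signal dotted. Points spread widely about the line, with replicate 1 higher for 20 of 54 genes, and ZK994.7 stands highest in both.

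Across the 54 genes the signals of the replicates were weakly related, with Spearman's rho of 0.249 and Pearson's r of 0.264 on the log2 scale. The genes were chosen by joint strength, which narrows the range, and the scale of the signal need not be shared between lists. The ratio of replicate 1 to replicate 2 had a median of 0.813 and ran over 0.367 to 2.15. Of the 53 distinct summits, 50 (94.3%, interval 84.3 to 98.8) had a summit within 100 bp in both replicate lists, against 796 of 846 other reproducible summits (94.1%). When each replicate list was limited to its 899 strongest peaks, 27 of 53 (50.9%) were matched in both, against 491 of 846 (58.0%). At that length 30 snoRNA genes had a summit in both replicates, 8 in replicate 1 alone and 23 in replicate 2 alone.

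Summits gathered just before the annotated snoRNA start. The median position of the 54 was 22.5 bp before it, with quartiles at 54.2 bp before and 1.50 bp after. Of the 54, 33 (61.1%) lay in the 100 bp before the start, which make up 16.2% of the window length. A further 13 lay inside the gene and 7 farther upstream, and 1 (1.85%) lay after the gene end, a part with 40.4% of the window length. Among the 899 strongest peaks of each replicate the count in the 100 bp before the start was 26 of 38 in replicate 1 and 35 of 53 in replicate 2.

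**Figure D3:**
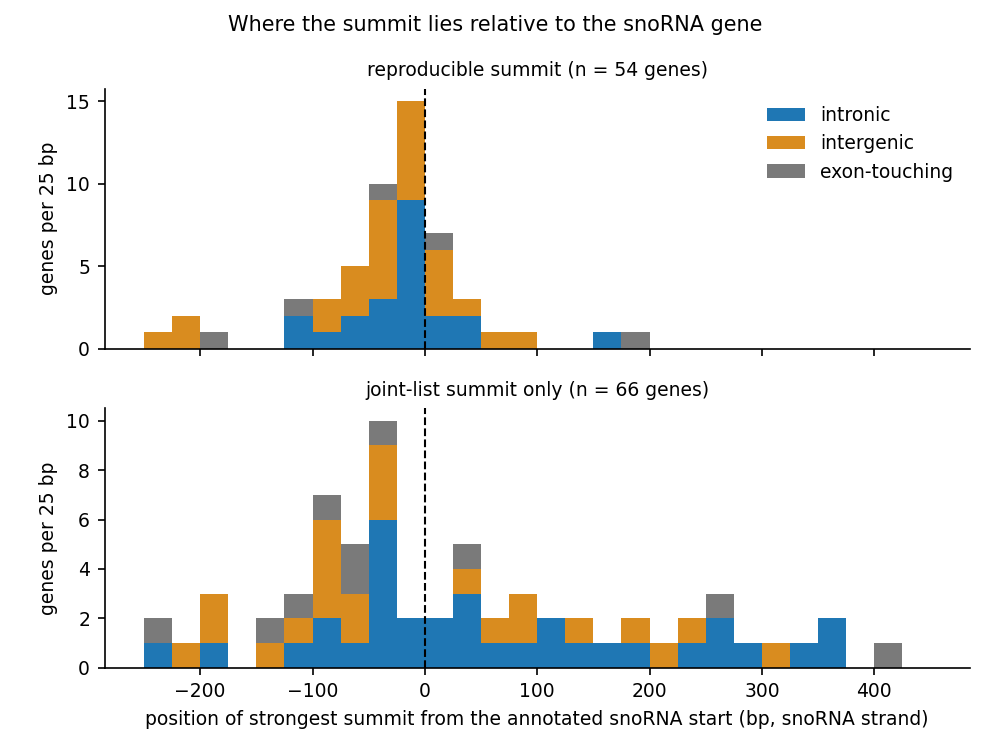
Position of the strongest joint-list summit from the annotated snoRNA start, in bins of 25 bp on the snoRNA's strand (negative is before the start), for 54 genes with a reproducible summit (top) and 66 with a joint-list summit that is not reproducible (bottom), stacked by gene class. The top panel is highest in the bin just before the start over all genes, with the intergenic genes equally high in the bin before that, and the bottom panel is spread over the window, with 19 summits after the gene end.

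In both main classes most summits lay in these 100 bp. The median was 15.5 bp before the start in intronic genes, of which 15 of 22 had the summit in the 100 bp before the start, and 36 bp before it in intergenic genes, with 17 of 27. For the 66 genes whose joint-list summit was not reproducible, 24 (36.4%) lay in those 100 bp and 19 (28.8%) after the gene end. At the 58 tRNA genes with a reproducible summit the median lay 20.5 bp after the start, and 26 of 58 were inside the gene, so tRNA and snoRNA summits took different places relative to the start. At snRNA genes the median lay 12.5 bp before the start, with 6 of 12 summits in the 100 bp before it. At miRNA genes it lay 79.0 bp before the start, with 4 of 6 in those 100 bp. A place before the start was thus not particular to snoRNA genes.

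Distances to coding starts were read beside those to the snoRNA. Since a summit had to lie within 250 bp of the snoRNA gene, its distance to the snoRNA was limited by the window, while that to a coding start was not. The summit was closer to the snoRNA start than to any coding transcript start at 52 of 54 genes, with median distances of 36 bp to the snoRNA start and 1076 bp to the nearest coding start. Even so, 21 of the 54 summits lay in a promoter window, and 2 of the 54 genes, T21B4.20 and C34E11.20, had a tRNA, snRNA or miRNA gene within 250 bp.

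The A-B pair and the paired element were found by reading the sequence before the 54 genes, so their frequency there is a description of the genes they came from. From 200 bp before to 30 bp after the start, on the gene's strand, 19 of 54 held the A-B pair and 15 held the paired element, with no gene holding both, so that 34 (63.0%, interval 48.7 to 75.7) held 1 of them. On the opposite strand 0 of 54 did. The 66 genes with a joint-list summit only, which were not read for this purpose, held 1 of them in 14 cases (21.2%, interval 12.1 to 33.0), against 17 of 226 genes with no joint-list summit (7.52%, interval 4.44 to 11.8). The A-B pair made most of that gap, at 13.6% with a joint-list summit only and 2.21% without, while the paired element stood at 7.58% and 5.31%.

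Before other genes these arrangements were rare, apart from snRNA genes. Of the 19973 protein-coding genes, 59 (0.295%) held 1 of them in the same window, and of 612 tRNA genes 4 did. The paired element, but not the A-B pair, lay before 30 of 129 snRNA genes (23.3%, interval 16.3 to 31.5). The A-B pair as spelled here was present inside 361 of 612 tRNA genes (59.0%), so the letters miss a sizeable part of true tRNA elements.

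**Figure D4:**
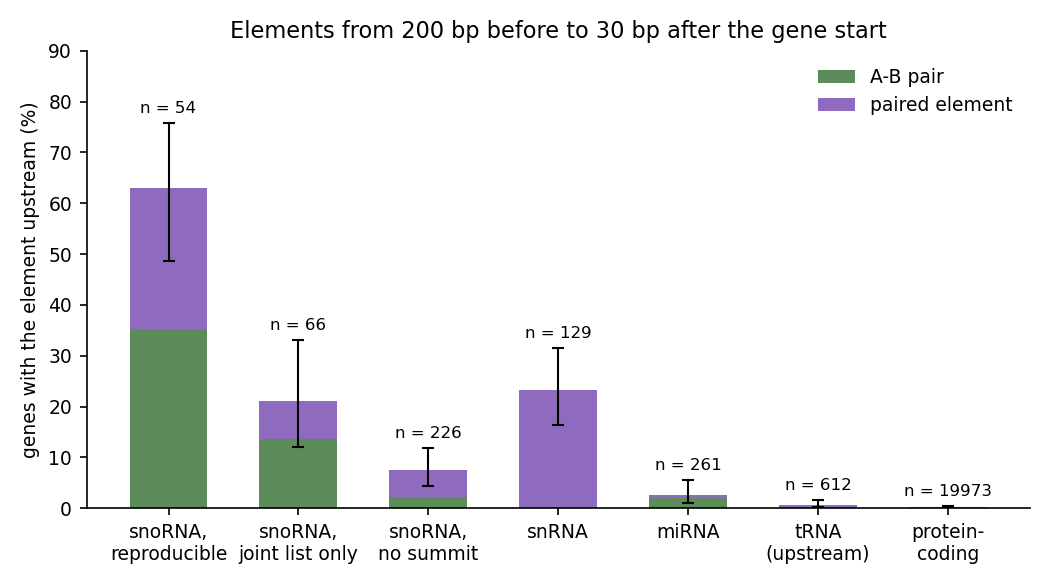
Percent of genes with an A-B pair (green) or a paired element (purple) from 200 bp before to 30 bp after the start on the gene's strand, stacked, with the 95% exact interval of their sum and the number of genes. The 54 snoRNA genes with a reproducible summit reach 63.0%, and protein-coding genes 0.295%; the patterns were derived from those 54 genes.

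Read the other way, 65 of the 346 snoRNA genes held an arrangement. Of the 33 with an A-B pair, 19 had a reproducible summit (57.6%) and 28 a joint-list summit (84.8%). Of the 32 with a paired element, 15 had a reproducible summit (46.9%), and of the 281 with neither 20 had one (7.12%, interval 4.40 to 10.8). Among the 899 strongest peaks of each list, the replicates differed most at the paired element. Replicate 1 had a summit there at 6 of the 32 genes holding it and replicate 2 at 15. For the A-B pair the counts were 13 and 19 of 33, replicate 1 first. For genes with neither they were 19 and 19 of 281. The difference at the paired element was absent from the whole lists, with 22 of 32 genes in replicate 1 and 20 of 32 in replicate 2.

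The classes were also split by arrangement, as a description only, since the patterns were read from the genes with a reproducible summit. With an arrangement, 16 of 34 intronic genes (47.1%) and 16 of 29 intergenic genes (55.2%) had a reproducible summit. Among the strongest peaks of replicate 1 these shares were 29.4% of intronic and 24.1% of intergenic genes, and among those of replicate 2 they were 47.1% and 58.6%, intronic first. Without one, 6 of 135 intronic genes (4.44%, interval 1.65 to 9.42) and 11 of 95 intergenic genes (11.6%, interval 5.92 to 19.8) had one. Among intergenic genes, an arrangement was present at 39.2% of those under 500 bp from a coding gene and 12.3% of those farther away. With an arrangement, 14 of 20 near genes (70.0%) and 2 of 9 farther ones (22.2%) had a reproducible summit. Without one, the counts were 8 of 31 near (25.8%) and 3 of 64 farther away (4.69%), so near genes had the higher share in both groups. Windows touching no promoter window also differed by arrangement, at 20 of 41 genes with an arrangement (48.8%) and 9 of 161 without (5.59%). There the strongest peaks of replicate 1 gave 29.3% with an arrangement and 5.59% without.

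Summits with and without an arrangement were of similar strength. Median joint signals were 63.2 with the A-B pair, 61.5 with the paired element and 64.3 with neither. The summit lay a median of 31.0 bp from the centre of the arrangement, ranging over 3.00 to 152 bp.

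**Figure D5:**
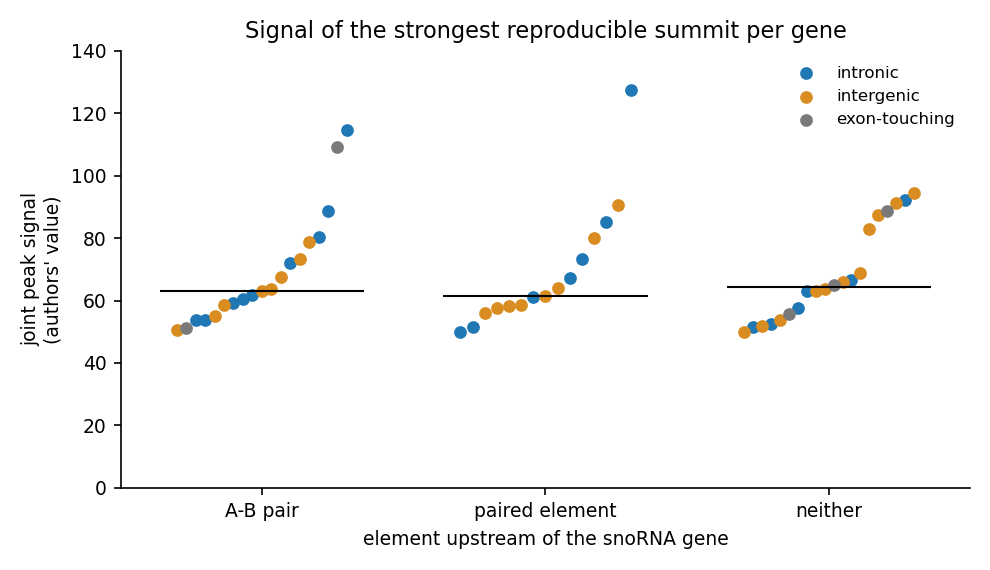
Joint peak signal of each of the 54 snoRNA genes with a reproducible summit, by the arrangement before the gene (19 with an A-B pair, 15 with a paired element, 20 with neither) and sorted within each column, with the median as a line. The medians lie between 61.5 and 64.3. The 3 strongest genes, ZK994.7, T03F7.8 and T02E1.9, all hold an arrangement, and the next 3, T06C12.16, C10C6.8 and F09G2.14, hold neither. The upper quartile is 76.1 with the A-B pair, 76.7 with the paired element and 84.0 with neither.

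Short motifs were counted in the 200 bp before the start on both strands. The stricter B-box form GTTCNANNC, which overlaps the second block of the A-B pair, was present before 17 of 54 genes with a reproducible summit (31.5%), 16.7% of those with a joint-list summit only, 7.08% of those with none and 5.34% of protein-coding genes. GAGAGA, a GA repeat, was present before 33.3%, 27.3%, 13.7% and 16.3% of the same sets in the same order. The TATA-box letters TATAAA were present before 20.4%, 15.2% and 17.3% of the snoRNA sets and 30.4% of protein-coding genes, so they were not more frequent before snoRNA genes than before coding genes. Around the summit itself the comparison was with the 846 other reproducible summits, not with other genes, and over a shorter stretch. Up to 50 bp to either side, GAGAGA was held at 9.26% of snoRNA genes and 30.9% of those other summits. In the 100 bp before the start, it was present at 14.8% of snoRNA genes with a reproducible summit. There it stood at 7.08% of snoRNA genes with no joint-list summit and 8.77% of protein-coding genes. Within 50 bp of the summit, GTTCNANNC was held by 31.5% of snoRNA genes and 4.73% of other summits, and TATAAA by 14.8% and 4.73%.

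The AP-1 letters were scarce at snoRNA summits. TGACTCA lay within 50 bp of the summit at 1 of the 54 (1.85%), against 2.72% of the other reproducible summits, and TGANTCA, which includes it, at 1.85% against 4.61%. CACGTG, the E-box, was present at 0 of 54 and 4.96% of the others. A count of 0 or 1 in 54 does not separate these shares.

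Within the snoRNA itself, the C-box letters TGATGA were present in 31.5% of genes with a reproducible summit, 12.1% of those with a joint-list summit only and 11.5% of those with none. Both a C box within 25 bp of the start and a D box within 20 bp of the end were found in 15 genes, of which 9 had a reproducible summit, and all 9 held an arrangement upstream. Among the 899 strongest peaks of each list, 3 of the 15 had a summit in replicate 1 and 9 of the 15 in replicate 2. In the whole lists the counts were closer, at 10 of 15 in replicate 1 and 12 of 15 in replicate 2. Of the 58 genes ending in the H/ACA manner, 11 had a reproducible summit (19%, interval 9.87 to 31.4), and of the 273 genes with neither feature 34 had one (12.5%). These features are matches of letters, and most annotated snoRNA genes held neither. A run of TTTTT, the letters at which RNA polymerase III stops, lay in the 50 bp after the end of 51.9% of genes with a reproducible summit, 54.5% of those with a joint-list summit only and 34.1% of those with none.

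Across chromosomes the share with a reproducible summit was highest on V, at 14 of 55 genes (25.5%, interval 14.7 to 39.0), and lowest on X, at 2 of 33 (6.06%, interval 0.743 to 20.2), with overlapping intervals. Chromosomes I, II, III and IV had 14.9%, 14.1%, 13.0% and 16.9%. Genes with a reproducible summit were somewhat shorter, with a median length of 120 bp (quartiles 74.2 and 136), against 133 bp (quartiles 106 and 171) for genes with no joint-list summit. None of the 54 had a near-identical second copy elsewhere in the genome (95% identity over 80% of the gene and its 100 bp flanks), against 10 of the 346.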

How the data were processed

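Chromatin of eGFP-tagged jun-1 L4 larvae (2 biological replicates, 1 group) was analysed from the deposited ce11 peak lists; the ce10 lists were not used. Per the labels and the deposited file descriptions, peaks were called against a control, whose files were not analysed here, in each replicate and jointly, and the joint list was cut by irreproducible discovery rate. Neither the aligner nor the peak caller is named by the labels or files. The signal is the deposited value per peak made by the authors, of unstated scale; depth is unknown, and calling against a control can remove regions of high background.

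Summits were set against WBcel235 with Ensembl release 115 annotation. A gene was counted when its span extended by 250 bp held a summit. Shares carry exact Clopper-Pearson 95% intervals and the class difference a Newcombe 95% interval. No test was run, since there was 1 group of 2 samples and genes are not replicates; the labels name separate biosamples but not separate cultures. Letters were searched in the RefSeq copy of the genome as stated beside each result, and gene copies with BLAST+ 2.17.0. Summits planted in 40 windows were found in 40 of 40. Named are the 10 intronic and 10 intergenic genes with the strongest reproducible summit, the 5 exon-touching ones, and the 3 strongest of the first 2 classes below the threshold. T21B4.20, C34E11.20 and smy-2 were named after their values were seen. The members, lists and motifs were chosen with earlier results of these data known, and the A-B pair, the paired element, and the split of intergenic genes by arrangement were added after sequences and values were seen. Alternatives changed the window, the list, the classes and the motif windows. Software was scipy 1.17.1, pandas 2.3.3, numpy 2.4.6 and matplotlib 3.10.9 under Python 3.11.15.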

Additional observations from a re-analysis of the deposited data

How the results depend on the processing

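No paired analysis was possible because the series holds 1 group of 2 replicates. Of 93 alternative values, 72 stayed within the interval of the reported value, 18 moved outside it and 3 changed sign. The sign changes were those of the class difference with intergenic genes at least 500 bp from a protein-coding gene (6.17 points in the reproducible and 5.15 points in the joint list, with 6.85% of such genes holding a reproducible summit), and with windows free of promoter windows in the joint list (1.04 points). The cause was not tested. With no extension, shares were 3.76% of all, 2.37% of intronic and 5.65% of intergenic genes, since most summits lie before the gene. With the stronger 449 of the 899 reproducible peaks they were 5.78%, 4.73% and 8.06% in the same order, by construction of a shorter list. Leaving out each replicate gave 11.0% to 15.3% for all genes, 8.88% to 12.4% for intronic and 14.5% to 22.6% for intergenic genes, and -10.2 to -5.64 points for the reproducible and -5.46 to -3.74 points for the joint difference. It gave median signals of 34.2 to 36.2, on each replicate list's own scale, and positions of -38.0 to -24.0 bp. Replicate matches were 75.5% within 50 bp, 100% within 200 bp and 50.9% between the strongest peaks. GAGAGA was found in 14.8% of 100 bp windows and 9.26% of summit windows. With alternatives chosen after seeing the data, stricter letters left an arrangement at 40.7% of genes with a reproducible summit and 6.64% of those with no joint-list summit, the opposite strand gave 0% and 2.21% in the same order, and leaving out a replicate gave 50% to 64.2%. Depth limits what a missing summit means, since it is unknown.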

Other observations

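The same letters were counted over the nuclear genome on both strands. The A-B pair was present at 6751 places, of which 56 had a reproducible summit within 50 bp. These were 18 of 53 places within 250 bp of a snoRNA gene (34.0%), 30 of 387 near a tRNA gene (7.75%) and 8 of 6284 elsewhere (0.127%). The paired element was present at 1050 places, with a reproducible summit at 9 of 38 near a snoRNA gene (23.7%), 2 of 29 near an snRNA gene (6.90%) and 1 of 970 elsewhere (0.103%). Places share genes and the patterns came from the snoRNA genes, so these shares are descriptions.

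Among the 8 A-B pairs elsewhere were 3 of the stronger peaks of the list, more than 250 bp from any annotated tRNA, snRNA, miRNA or snoRNA gene. They lay on chromosome X at 16682113 (signal 329, rank 16 of the joint list), on X at 7181789 (signal 265, rank 23) and on III at 13643745, 171 bp from set-16 (signal 219, rank 30). Each was stronger than any summit at a snoRNA gene, whose highest signal was 128. They were chosen here after their values were seen.

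Words of 7 letters in the 200 bp before the start were also counted. TGGCGCA was present before 11 of 54 genes with a reproducible summit (20.4%) and 5 of 226 with no joint-list summit (2.21%), and CGCCGCG before 9 of 54 and 1 of 226. TGGCGCA matches the front of an A box, and it was picked from all words by this difference.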
